A study of Mus musculus with 12 samples.

Results

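The 10 genes described here belong to nucleotide hydrolysis and purine salvage. They were followed in the jejunum of wild-type mice and of mice in which the intestinal alkaline phosphatase (IAP) gene Akp3 was knocked out. They are the enzymes and carriers that handle the nucleotide substrates of that phosphatase: Entpd1, Entpd5, Entpd8, Enpp1, Enpp3, Nt5e, Ada, Slc28a1, Slc28a2 and Xdh. The genes were chosen by function, with earlier results of these data known, and found through the RefSeq accessions of their array probes. All 10 were on the array, with 16 probes between them, and all 10 were among the 27565 genes tested. Each was well above background on all 12 arrays.

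The 12 arrays came from the jejunum of male mice in 4 groups of 3. IAP-KO (Akp3-/-) mice received IIAEK, IAP-KO mice received vehicle, wild-type mice received IIAEK and wild-type mice received vehicle. These groups are called KO IIAEK, KO vehicle, WT IIAEK and WT vehicle. IIAEK is a peptide of 5 amino acids, known for lowering cholesterol, and was given by mouth at 600 mg/kg body weight a day from 7 weeks of age. The vehicle, which all 4 groups received, was carboxymethylcellulose at 5 g/L. Treatment ran for 14 days, and the jejunum was taken after 8 h of fasting. One label of the IIAEK arrays counts this treatment in weeks, whereas their titles and protocol count it in days. The sources used here give neither strain nor litter, nor whether each array is a mouse of its own, so the p-values measure only the spread between these samples, which may be technical.

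Nucleotides in the gut lumen come from food, microbes and shed cells and carry phosphates that keep them out of cells. Enzymes on the outer face of cells remove the phosphates in steps. NTPDases (Entpd genes) and nucleotide pyrophosphatases (Enpp genes) cut ATP and ADP down to AMP. Then 5'-nucleotidase (Nt5e, also called CD73) and alkaline phosphatase release adenosine. Of the Entpd genes here, Entpd8 is known from intestinal epithelium and Entpd1 from vessels and immune cells, whereas Entpd5 lies inside the cell. Adenosine deaminase (Ada) turns adenosine into inosine, the concentrative carriers (Slc28a genes) take nucleosides into the cell with sodium, and xanthine oxidoreductase (Xdh) makes urate from the purine bases that are not reused. Extracellular ATP and adenosine also act as signals through P2 and adenosine receptors.

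All levels are log2 values of the processed signal minus the 75th percentile of their own array, so that 0 is that percentile and a difference of 1 is a doubling of signal. A level belongs to its probe, and levels of different genes are not compared. The deleted gene itself was dim. Akp3 read -6.41, -7.33 and -7.19 on the KO IIAEK arrays and -7.32, -5.96 and -6.44 on the KO vehicle arrays, against -4.39, -1.61 and -1.74 on WT IIAEK and -3.81, -4.43 and -6.42 on WT vehicle. It was well above background on 0 of 6 KO arrays and on 5 of 6 WT arrays, the exception being WT vehicle replicate 3. With the detection limit in place of the KO signal, Akp3 was at least 8.06-fold lower in KO IIAEK than in WT IIAEK. For KO vehicle against WT vehicle the same calculation gave a 1.28-fold lower value. This is not a firm bound, because the WT vehicle mean includes replicate 3, which was not well above background. In limma, on the signal as read, the log2 differences on IIAEK and on vehicle were -4.40 and -1.69, with adjusted p = 0.390 and 0.441. Akp3 was tested only through WT IIAEK, the 1 group with all 3 arrays well above background. These p set WT signal against KO readings that were not well above background. A second, dimmer Akp3 probe was well above background on 2 of 3 WT IIAEK arrays, 0 of 3 WT vehicle arrays and 0 of 6 KO arrays. It therefore gave no fold on vehicle. The files do not place either probe relative to the deleted part of the gene. In the enterocyte marker list all 12 genes were well above background on every array. Of the spots on an array, 59.99% to 67.1% passed the scanner's test for being well above background, and the percentile used for scaling was at 575 to 816 units of signal. Across genes, r was 0.978 to 0.992 within groups and 0.965 to 0.994 between them. The arrays lay on 2 slides: slide 1 held replicate 1 of each WT group and replicates 1 and 2 of each KO group.

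In none of the 7 comparisons did any of the 10 genes pass an adjusted p of 0.05. The test was limma with Benjamini-Hochberg adjustment over all genes tested, two-sided, on 3 arrays a group. Among all genes tested the same threshold called 0% in the comparison of IIAEK with vehicle in the knockout, 0% for IIAEK with vehicle in wild type, 0% for knockout with wild type on IIAEK, 0% for knockout with wild type on vehicle, 0% for the interaction and 0% for IIAEK over both genotypes. For knockout against wild type over both treatments it called 0.00363%, which is 1 gene, Glrp1, named here after its values were seen. Glrp1 was well above background on 0 of 6 KO arrays and 6 of 6 WT arrays, so it was tested only through the WT groups. With the detection limit in place of its KO signal, Glrp1 was at least 1.34-fold lower in KO. Its adjusted p of 0.00885 belongs to the signal as read, with a log2 difference of -2.29. That p sets WT signal against KO readings that were not well above background. It did not pass after normexp background correction (adjusted p = 0.534) or without KO IIAEK replicate 2 (adjusted p = 0.0517), and over all alternatives tested its adjusted p was 0.000906 to 0.534. The absence of calls among the 10 genes is thus near the background of the whole array. The smallest adjusted p of any of the 10 was 0.311, for Entpd1 in the interaction.

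At an unadjusted p under 0.05 the counts were also small. For knockout against wild type on IIAEK 3 of the 10 genes met it, Ada, Entpd1 and Entpd5, all lower in KO, against 7.66% of all genes. Without KO IIAEK replicate 3 the count was 1 of 10, and leaving out 1 array at a time moved the count over all genes, 2111, to between 1010 (without WT IIAEK replicate 3) and 4676 (without KO IIAEK replicate 1). For knockout against wild type over both treatments 2 of 10 met it, Ada and Entpd5, both lower in KO, against 5.37% of all genes. For the interaction 1 of 10 met it, Entpd1, against 15.1% of all genes. None met it for IIAEK in the knockout, where 4.42% of all genes did, for IIAEK in wild type (13%), for knockout against wild type on vehicle (11.4%) or for IIAEK over both genotypes (3.4%). No gene list was tested as a list here.

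The 10 genes differed in how much they varied. Ada, Nt5e, Slc28a1 and Slc28a2 spread over 2.13, 2.10, 2.68 and 2.46 log2 units across the 12 arrays, where the median gene spread over 0.90. These ranges lay at the 93.6, 93.3, 96.9 and 95.8 percentiles of all genes tested. Entpd8, Enpp1, Xdh and Entpd1 were among the steadier genes, at the 10.96, 16.1, 26.6 and 30.5 percentiles, and Enpp3 and Entpd5 lay at the 58.5 and 59.7 percentiles. The wide spread was within groups as well: the pooled SD within groups was 0.62 for Ada, 0.65 for Nt5e, 0.79 for Slc28a1 and 0.78 for Slc28a2, against a median of 0.25 over all genes.

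The stretch of 250 bases before the start of each of these 4 variable genes is shown for reference, because it is the proximal promoter of the genes whose signal moved most between arrays. The sequences are RefSeq's on GRCm38.p6, read 5' to 3' on the strand of the gene. Capitals mark GGGCGG or its reverse complement CCGCCC, known as the GC box, and AGATAA or its reverse complement TTATCT, known as the GATA site. The windows lie at chr2:163750240-163750489 on the minus strand, chr2:122426185-122426434 on the plus strand, chr9:88327359-88327608 on the plus strand and chr7:81114549-81114798 on the plus strand.
Ada: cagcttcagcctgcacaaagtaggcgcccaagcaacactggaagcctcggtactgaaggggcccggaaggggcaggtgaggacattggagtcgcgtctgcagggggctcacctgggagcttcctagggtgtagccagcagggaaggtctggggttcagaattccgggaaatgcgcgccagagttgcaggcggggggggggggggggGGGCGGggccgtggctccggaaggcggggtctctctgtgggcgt
Slc28a2: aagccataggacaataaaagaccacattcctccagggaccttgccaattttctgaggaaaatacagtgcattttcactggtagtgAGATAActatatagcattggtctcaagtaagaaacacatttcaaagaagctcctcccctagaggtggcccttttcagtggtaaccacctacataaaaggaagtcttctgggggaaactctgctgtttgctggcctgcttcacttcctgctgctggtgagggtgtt
Nt5e: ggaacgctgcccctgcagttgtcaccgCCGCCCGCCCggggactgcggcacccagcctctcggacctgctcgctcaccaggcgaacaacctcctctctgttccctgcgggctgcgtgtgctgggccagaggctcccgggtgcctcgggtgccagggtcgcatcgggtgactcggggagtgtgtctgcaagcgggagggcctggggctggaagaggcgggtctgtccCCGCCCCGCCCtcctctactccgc
Slc28a1: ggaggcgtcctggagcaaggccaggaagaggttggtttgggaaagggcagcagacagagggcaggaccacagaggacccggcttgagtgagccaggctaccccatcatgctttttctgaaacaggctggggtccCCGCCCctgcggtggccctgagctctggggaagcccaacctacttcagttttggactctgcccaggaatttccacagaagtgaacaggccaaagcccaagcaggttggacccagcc
The GC box was matched 1 time before Ada, 4 times before Nt5e and 1 time before Slc28a1, and 0 times before Slc28a2. Of all 32851 promoter windows of this length, 32.7% held it on either strand. The GATA letters were matched 1 time, before Slc28a2, at bases -165 to -160 from the start, and 9.99% of all windows held them. TATAAA (12.4% of windows), GTTAAT (6.43%), an HNF1 half-site, and AGGTCA (14.0%), a nuclear receptor half-site, were also searched on both strands and were not among the letters of these 4 windows. The G and C share was 67.2% before Ada, 45.2% before Slc28a2, 72.0% before Nt5e and 60.4% before Slc28a1, against a median of 52.4% over all windows. Windows of 9 of the 10 genes, all but Xdh, were matched in the table. A match is a description of letters and not evidence of binding.

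**Figure D1:**
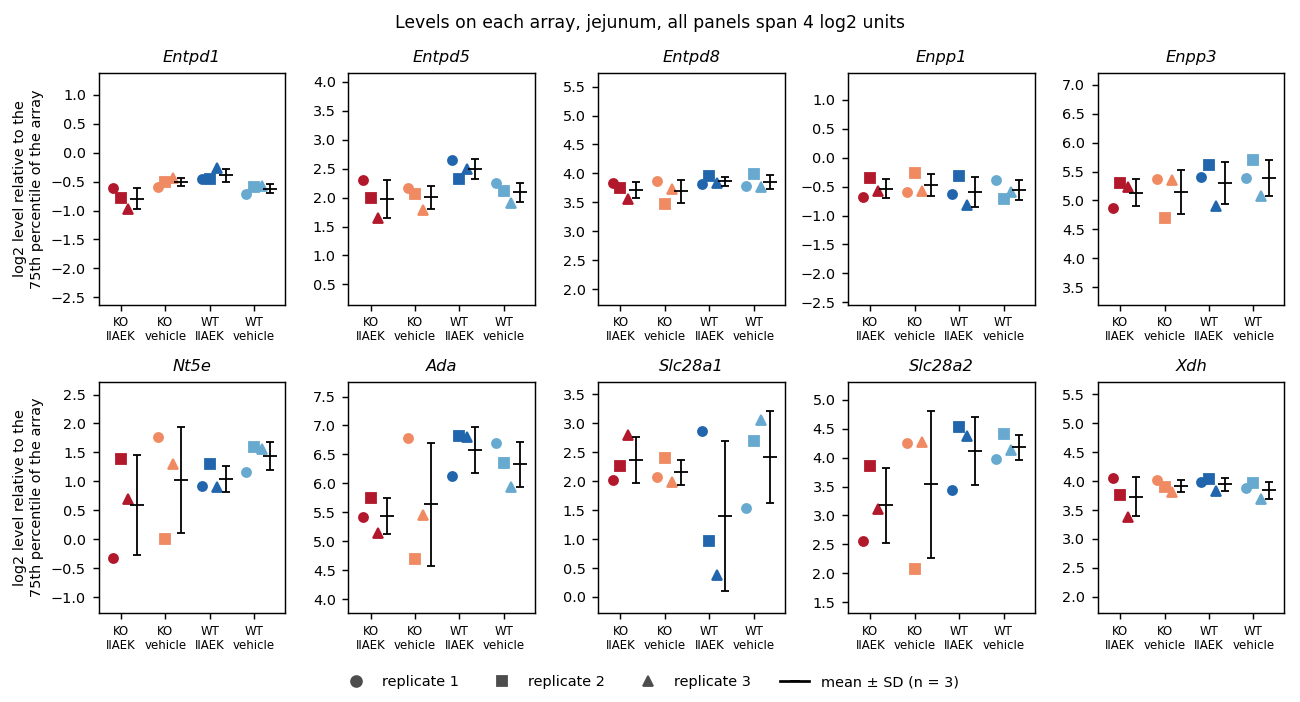
Log2 level (0 at the 75th percentile of each array) for the 10 genes, with 1 panel a gene, the 4 groups along the x axis, 1 symbol a replicate and the mean ± SD (n = 3) in black beside them; every panel spans 4 log2 units. Entpd8, Enpp1 and Xdh stay in a narrow band, whereas Nt5e, Ada, Slc28a1 and Slc28a2 each have arrays more than 1 log2 unit from others of the same group.

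The first step on extracellular ATP belongs to the NTPDases. Entpd1, known as CD39 and found on vessels and immune cells, cuts ATP and ADP to AMP. Its level was -0.61, -0.79 and -0.98 on the KO IIAEK arrays and -0.58, -0.51 and -0.44 on KO vehicle, against -0.46, -0.45 and -0.27 on WT IIAEK and -0.72, -0.59 and -0.57 on WT vehicle. The KO IIAEK arrays were thus all below the KO vehicle arrays and all below the WT IIAEK arrays. The WT IIAEK arrays were all above the WT vehicle arrays. The share of all genes tested that separated in the same pairs of groups was not computed. Such separations, here and for the genes below, therefore only describe the arrays and were not set against that background. The difference of KO IIAEK from KO vehicle was -0.28 (95% confidence interval -0.58 to 0.0085, adjusted p = 0.910), and that of WT IIAEK from WT vehicle was 0.23 (-0.06 to 0.52, adjusted p = 0.431). The interaction, the IIAEK effect in KO minus that in WT, was -0.51 ± 0.19 (SE) with unadjusted p = 0.0192 and adjusted p = 0.311. On IIAEK, KO minus WT was -0.40 ± 0.13 (SE, adjusted p = 0.648). The interaction was -0.41 within slide 1 and -0.76 within slide 2. A second, dimmer Entpd1 probe gave an interaction of -0.56 ± 0.28 (SE) and a KO minus WT on IIAEK of -0.28 ± 0.20 (SE). On that probe KO IIAEK, at -3.19, -3.22 and -3.74, again lay below KO vehicle. It overlapped WT IIAEK, at -3.48, -2.98 and -2.84, and WT IIAEK overlapped WT vehicle, at -3.50, -3.29 and -3.27. Only 1 of the separations above was thus seen on both probes.

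Markers of cells in which Entpd1 is known stand beside it here. The 8 endothelial markers had mean levels of -1.08 to -0.55 in KO IIAEK and -0.51 to -0.19 in KO vehicle, against -0.64 to -0.33 in WT IIAEK and -0.89 to -0.54 in WT vehicle. Their summed linear level was 9.29 to 10.6 in KO IIAEK and 10.8 to 13.3 in KO vehicle, against 9.19 to 12.7 in WT IIAEK and 8.82 to 9.96 in WT vehicle. For IIAEK against vehicle 7 of the 8 were below 0 in the knockout and 7 of 8 were above 0 in wild type. The 8 markers of B and plasma cells averaged -1.38 to -0.72 in KO IIAEK and 0.95 to 1.43 in KO vehicle, against -0.95 to 1.47 in WT IIAEK and -1.20 to 1.11 in WT vehicle. Their summed level overlapped between all groups, at 129 to 243 in KO IIAEK and 135 to 219 in KO vehicle, against 135 to 215 in WT IIAEK and 191 to 241 in WT vehicle. The median difference of the 7 macrophage and myeloid markers was 0.19 for IIAEK in the knockout, where Entpd1 had -0.28, and 0.24 in wild type. That of the 5 T cell markers was -0.10 in the knockout and -0.11 in wild type, where Entpd1 had 0.23. All markers of these 4 lists were well above background on every array, and their part in the Entpd1 values was not tested. In such bulk tissue fewer cells of a type and less RNA per cell cannot be told apart.

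Entpd5, a UDPase of the endoplasmic reticulum rather than of the cell surface, had levels of 2.31, 1.99 and 1.64 in KO IIAEK and 2.17, 2.06 and 1.78 in KO vehicle, against 2.66, 2.32 and 2.50 in WT IIAEK and 2.24, 2.12 and 1.91 in WT vehicle. The WT IIAEK arrays were the 3 highest of the 12. WT IIAEK minus WT vehicle was 0.40 (95% confidence interval -0.01 to 0.81, adjusted p = 0.389), and KO IIAEK minus KO vehicle was -0.02 (-0.44 to 0.39, adjusted p = 0.987). The test of that contrast, the interaction, gave -0.43 ± 0.27 (SE, adjusted p = 0.437). On IIAEK, KO minus WT was -0.51 ± 0.19 (SE, unadjusted p = 0.0190, adjusted p = 0.648), and the arrays of these groups did not overlap. Over both treatments it was -0.30 ± 0.13 (SE, adjusted p = 0.923). A second Entpd5 probe gave -0.36 ± 0.20 (SE) for KO minus WT on IIAEK. For WT IIAEK minus WT vehicle it gave 0.19 ± 0.20 (SE). On that probe KO IIAEK and WT vehicle each overlapped WT IIAEK. There WT IIAEK replicate 2, at 1.25, lay below KO IIAEK replicate 1, at 1.53, and WT vehicle replicate 2, at 1.43. The separations above were thus seen on the first probe only.

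Entpd8, the NTPDase known from the apical face of intestinal epithelium, had the narrowest range of the 10 genes over the 12 arrays. Its level was 3.83, 3.76 and 3.55 in KO IIAEK and 3.87, 3.48 and 3.73 in KO vehicle, against 3.81, 3.95 and 3.83 in WT IIAEK and 3.79, 3.99 and 3.77 in WT vehicle. All groups overlapped. The IIAEK effect was 0.02 in the knockout (95% confidence interval -0.29 to 0.34) and 0.02 in wild type (-0.30 to 0.33), with adjusted p of 0.985 and 0.960.

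The pyrophosphatases cut ATP to AMP in a single step. Enpp1, which makes the pyrophosphate that restrains mineral deposition, had levels of -0.68, -0.35 and -0.57 in KO IIAEK and -0.59, -0.26 and -0.58 in KO vehicle, against -0.63, -0.32 and -0.82 in WT IIAEK and -0.38, -0.72 and -0.60 in WT vehicle. Its largest difference over the 7 comparisons was 0.09, for KO minus WT on vehicle (adjusted p = 0.838). Enpp3, an ectoenzyme of the intestinal epithelium known for clearing extracellular ATP, had 4.87, 5.30 and 5.23 in KO IIAEK and 5.38, 4.70 and 5.35 in KO vehicle, against 5.41, 5.61 and 4.90 in WT IIAEK and 5.39, 5.70 and 5.08 in WT vehicle. Neither gene separated any pair of groups. Enpp3 was lower in KO than in WT over both treatments by a difference of -0.21 ± 0.18 (SE, adjusted p = 0.980).

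Nt5e, the enzyme that turns extracellular AMP into adenosine and so shares its reaction with alkaline phosphatase, had levels of -0.33, 1.39 and 0.70 in KO IIAEK and 1.77, 0.00 and 1.29 in KO vehicle, against 0.92, 1.30 and 0.90 in WT IIAEK and 1.16, 1.60 and 1.56 in WT vehicle. The KO arrays spread over more than those of WT, with SDs of 0.87 and 0.91 in KO IIAEK and KO vehicle against 0.22 and 0.24 in WT IIAEK and WT vehicle; this difference in spread was not tested. Over both treatments KO minus WT was -0.44 (95% confidence interval -1.15 to 0.27, adjusted p = 0.971). The IIAEK effect was -0.44 in the knockout and -0.40 in wild type (adjusted p = 0.916 and 0.663). KO IIAEK replicate 1 decided the sign of its group's value: without it, KO IIAEK minus KO vehicle was 0.02, and KO minus WT on IIAEK was 0.0050.

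Ada, the next enzyme, had the largest difference between genotypes. Its level was 5.42, 5.75 and 5.14 in KO IIAEK and 6.78, 4.68 and 5.45 in KO vehicle, against 6.12, 6.82 and 6.80 in WT IIAEK and 6.70, 6.35 and 5.93 in WT vehicle. On 5 of 6 KO arrays Ada lay below the lowest of the 6 WT arrays, and KO vehicle replicate 1 was the exception. Over both treatments KO minus WT was -0.91 ± 0.31 (SE), a 1.88-fold lower signal in KO (95% confidence interval of the log2 difference -1.59 to -0.24). Its unadjusted p was 0.0124 and its adjusted p was 0.790. On IIAEK the difference was -1.14 (-2.10 to -0.18, adjusted p = 0.648) with no overlap of the groups, and on vehicle it was -0.69 (-1.64 to 0.27, adjusted p = 0.527) with overlap. The interaction was -0.45 ± 0.62 (SE, adjusted p = 0.732).

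Ada's genotype difference over both treatments was -0.75 within slide 1, -1.18 within slide 2 and -0.96 with the slide as a block. Leaving out any 1 array gave values from -1.20 to -0.68. On vehicle the difference was -0.21 without KO vehicle replicate 2 and -1.26 without KO vehicle replicate 1. A second Ada probe read in parallel, with 2.52, 3.11 and 2.42 in KO IIAEK and 4.34, 2.10 and 2.17 in KO vehicle, against 3.47, 4.36 and 4.32 in WT IIAEK and 4.10, 3.74 and 3.28 in WT vehicle. It gave a genotype difference of -1.10 ± 0.36 (SE) over both treatments. The IIAEK effect on Ada was -0.20 in the knockout and 0.25 in wild type (adjusted p = 0.954 and 0.783). Neither sign held: leaving out 1 array gave -0.68 (KO vehicle replicate 2) to 0.37 (KO vehicle replicate 1) in the knockout, and in wild type the effect was -0.58 within slide 1 and 0.67 within slide 2.

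**Figure D2:**
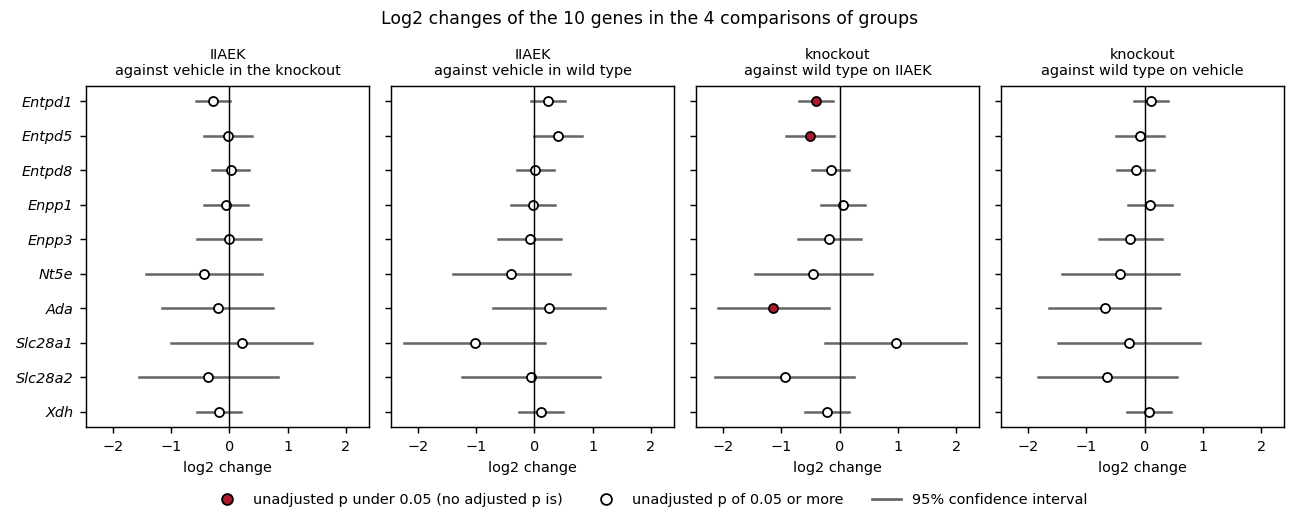
Log2 change (x axis) of the 10 genes (y axis) with its 95% confidence interval as a line, in the 4 comparisons of groups, where each point is the difference of the group named first minus the other. Filled points have an unadjusted p under 0.05 (Ada, Entpd1 and Entpd5 for knockout against wild type on IIAEK), and no adjusted p is under 0.05; the intervals of Nt5e, Ada, Slc28a1 and Slc28a2 are the widest.

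Slc28a2, the carrier that prefers purine nucleosides, had levels of 2.56, 3.85 and 3.1 in KO IIAEK and 4.26, 2.08 and 4.28 in KO vehicle, against 3.43, 4.54 and 4.37 in WT IIAEK and 3.98, 4.40 and 4.14 in WT vehicle. The lowest 3 arrays were all KO (KO vehicle replicate 2 and KO IIAEK replicates 1 and 3), and the other 3 KO arrays lay within the WT range. KO minus WT was -0.79 ± 0.38 over both treatments (SE, 95% confidence interval -1.63 to 0.05, adjusted p = 0.927), -0.94 on IIAEK (adjusted p = 0.665) and -0.64 on vehicle (adjusted p = 0.625). On vehicle the value rested on KO vehicle replicate 2, and without it the difference was 0.09. The IIAEK effect was -0.36 in the knockout and -0.06 in wild type (adjusted p = 0.933 and 0.962).

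Slc28a1, the carrier that prefers pyrimidine nucleosides, varied most of the 10 genes, and its extremes were in WT. Its level was 2.02, 2.27 and 2.79 in KO IIAEK and 2.07, 2.40 and 1.99 in KO vehicle, against 2.86, 0.96 and 0.38 in WT IIAEK and 1.53, 2.69 and 3.05 in WT vehicle. WT IIAEK replicates 2 and 3 were the lowest of the 12 arrays and WT vehicle replicate 3 was the highest. WT IIAEK minus WT vehicle was -1.03 ± 0.55 (SE, a 2.04-fold lower signal, 95% confidence interval -2.24 to 0.19, adjusted p = 0.415). KO IIAEK minus KO vehicle was 0.21 (adjusted p = 0.961), and the interaction was 1.24 ± 0.78 (SE, adjusted p = 0.442). Within slide 1, which holds 1 array of each of these WT groups, WT IIAEK minus WT vehicle was 1.33, and within slide 2 it was -2.20 (adjusted p = 0.0874). It was -0.52 without WT IIAEK replicate 3 and -1.76 without WT IIAEK replicate 1, and the interaction was 0.72 and 1.97 without these arrays. The second Slc28a1 probe gave -1.31 ± 0.70 (SE) for the same comparison.

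The same WT IIAEK arrays stood apart in other ways. The 12 enterocyte markers were lowest of all arrays on WT IIAEK replicates 2 and 3, at -0.12 and -0.26 from the mean of the 12 arrays. For WT IIAEK against WT vehicle 11 of the 12 were below 0, 2 at an unadjusted p under 0.05, with a median of -0.28 and summed levels of 2064 to 2519 in WT IIAEK, against 2637 to 2834 in WT vehicle. In that comparison 13% of all genes tested met the unadjusted threshold, the share to set beside this count and those that follow. Relative to the mean of the 12 arrays, the 5 markers of distal small intestine were at -0.50 and -0.82 on WT IIAEK replicates 2 and 3, the lowest of all arrays. All 5 were below 0 for WT IIAEK against WT vehicle, with 1 at an unadjusted p under 0.05, and their summed level was 32.3 to 46.4 in WT IIAEK, against 53.2 to 70.9 in WT vehicle. The 10 smooth muscle markers were all above 0 in that comparison, 7 at an unadjusted p under 0.05, with summed levels of 117 to 189 in WT IIAEK, against 64.6 to 105 in WT vehicle. Markers of exocrine pancreas were 8.39 above the mean on WT IIAEK replicate 3, with a summed level up to 2416 in WT IIAEK, against up to 26.7 in WT vehicle. They were also high on KO vehicle replicate 3, at 4.29 above the mean with a summed level of 204. The part of these differences in the values of Slc28a1, and of the other genes on these arrays, was not tested.

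By mean log2 level, villus tip markers were lowest on KO vehicle replicate 2, at -0.50 from the mean of the 12 arrays. Ada, Slc28a2, Enpp3 and Entpd8 were lowest on the same array, and Nt5e was lower only on KO IIAEK replicate 1. Enpp1 was at its highest there. The mean level of the 10 genes was also lowest on that array, at -0.42. There the enterocyte list was at -0.09 and the list of 5 duodenal and proximal markers at -0.0041. By summed level, the villus tip markers were lowest in WT IIAEK. Their summed level was 521 to 581 in KO IIAEK and 468 to 622 in KO vehicle, against 393 to 578 in WT IIAEK and 614 to 627 in WT vehicle. All 7 were well above background on every array. On KO IIAEK replicates 1 and 3 Ada was -0.57 and -0.86 from its mean, where the villus tip list was at 0.00 and -0.10. On WT IIAEK replicates 2 and 3 Ada was 0.82 and 0.80 above its mean, where the villus tip list was at -0.06 and -0.12. The duodenal and proximal list was highest of all arrays there, at 0.13 and 0.22. It was at 0.11 and -0.14 on KO IIAEK replicates 1 and 3. Its summed level was 518 to 576 in WT IIAEK, against 606 to 646 in WT vehicle. The part of these lists in the Ada and Slc28a2 values was not tested.

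**Figure D3:**
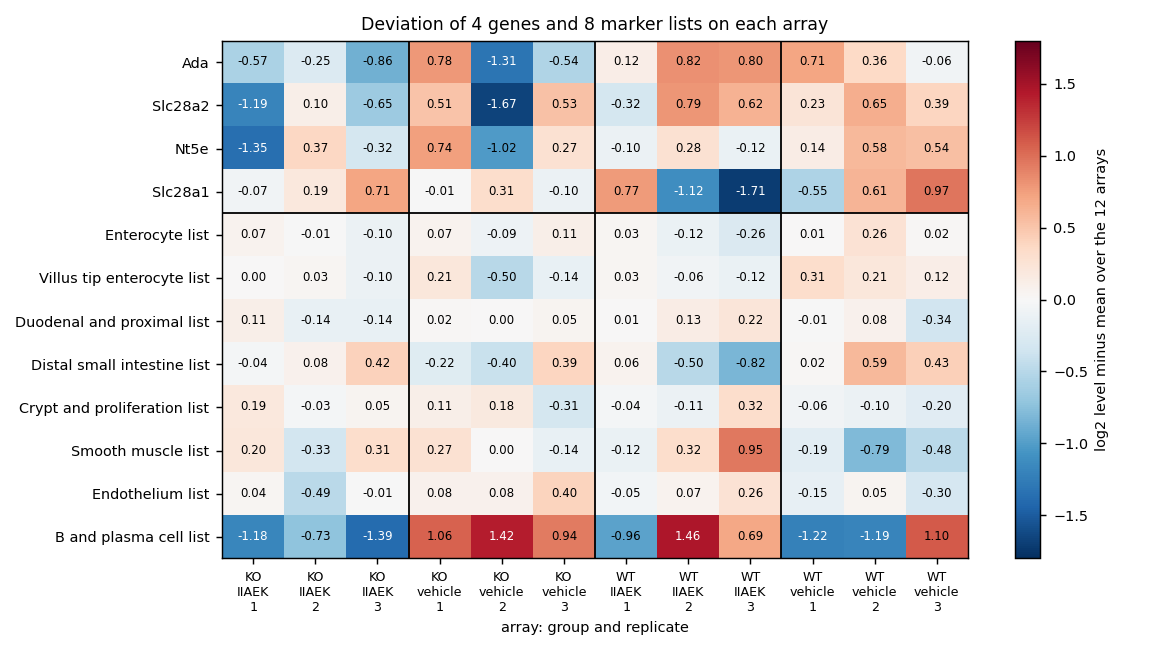
Deviation of the log2 level from its mean over the 12 arrays (colour and number) for the 4 most variable genes and 8 marker lists (rows, mean over the genes of a list) on each array (columns, grouped as KO IIAEK, KO vehicle, WT IIAEK and WT vehicle). KO vehicle replicate 2 is low in Ada (-1.31), Slc28a2 (-1.67), Nt5e (-1.02) and the villus tip list (-0.50), and WT IIAEK replicates 2 and 3 are low in Slc28a1 (-1.12 and -1.71) and the distal list (-0.50 and -0.82).

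Xdh, the last enzyme of purine breakdown in the list, had levels of 4.05, 3.76 and 3.38 in KO IIAEK and 4.02, 3.90 and 3.81 in KO vehicle, against 3.98, 4.03 and 3.82 in WT IIAEK and 3.87, 3.96 and 3.68 in WT vehicle. All groups overlapped. The IIAEK effect was -0.18 in the knockout (95% confidence interval -0.56 to 0.19) and 0.11 in wild type (-0.27 to 0.48), with adjusted p of 0.912 and 0.764. Its 2 probes differed in size: the brighter gave an interaction of -0.29 ± 0.24 (SE, adjusted p = 0.562), and the dimmer gave -0.76 ± 0.31 (SE), with -0.50 ± 0.22 (SE) for IIAEK in the knockout.

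Read together by comparison, the median log2 difference of the 10 genes was -0.12 for IIAEK in the knockout and -0.0042 for IIAEK in wild type, where the medians over all genes tested were 0.0060 and -0.06. For KO against WT it was -0.31 on IIAEK and -0.20 on vehicle, where all genes had medians of 0.02 and -0.03. Over both treatments it was -0.18 for KO against WT, with 8 of the 10 genes below 0, where all genes had a median of -0.0044. For the interaction it was -0.16 with 7 of 10 below 0, where all genes had 0.06, and for IIAEK over both genotypes it was -0.04, where all genes had -0.02. The comparisons share arrays, so these medians are not separate observations.

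The other phosphatases act on the same phosphate esters. Over both treatments Akp3, with the detection limit in place of its KO signal, was 3.21-fold lower in KO than in WT. The WT mean again includes WT vehicle replicate 3, so this is not a firm bound. The second Akp3 probe, well above background on 2 of 6 WT arrays, gave 1.39-fold. On the signal as read the first Akp3 probe had a log2 difference of -3.04 (adjusted p = 0.222 in limma). That p also sets WT signal against KO readings that were not well above background. KO minus WT was -1.15 ± 0.22 for Alppl2 and -0.73 ± 0.18 for Alpi (SE, adjusted p = 0.245 and 0.514), and 0.23 ± 0.25 for Alpl (SE, adjusted p = 0.982). Alpi, the other intestinal phosphatase gene, had levels of 4.84, 4.61 and 3.99 in KO IIAEK and 5.06, 4.44 and 4.85 in KO vehicle, against 5.42, 5.81 and 5.66 in WT IIAEK and 5.25, 5.31 and 4.68 in WT vehicle. Its KO IIAEK and WT IIAEK arrays did not overlap. None of the 4 phosphatase genes passed the adjusted threshold in any of the 7 comparisons.

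The rest of the pathway was read through 6 lists with 79 tested genes, and 0 of the 79 passed an adjusted p of 0.05 in any of the 7 comparisons. At an unadjusted p under 0.05 there were 6 of 79 (7.59%) for IIAEK in the knockout and 12 of 79 (15.2%) for IIAEK in wild type, where all genes had 4.42% and 13%. For KO against WT over both treatments there were 2 of 79 (2.53%, against 5.37% of all genes). The counts for KO against WT were 4 of 79 (5.06%, against 7.66%) on IIAEK and 13 of 79 (16.5%, against 11.4%) on vehicle. For the interaction there were 16 of 79 (20.3%, against 15.1%), and for IIAEK over both genotypes 2 of 79 (2.53%, against 3.4%). The lowest adjusted p over the 79 genes was 0.910 for IIAEK in the knockout, 0.369 for IIAEK in wild type and 0.884 for KO against WT over both treatments. The values that follow did not pass.

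Among the other ecto-nucleotidases 0 of 10 met the unadjusted threshold in these 3 comparisons. Entpd7 had -0.71 ± 0.44 (SE) for IIAEK in the knockout, and Entpd6 had 0.34 ± 0.16 for IIAEK in wild type. Inside the cell, adenosine kinase (Adk), which returns adenosine to AMP, had 0.38 ± 0.23 for IIAEK in the knockout and -0.59 ± 0.23 for IIAEK in wild type. Guanine deaminase (Gda) had -0.38 ± 0.16 for KO against WT over both treatments, with adjusted p = 0.891. Of 16 genes of purine salvage and breakdown 1 met the unadjusted threshold in the knockout (Nt5c3, 0.44 ± 0.16) and 2 in wild type (Adk and Aox1, 0.61 ± 0.26). Of all genes tested 4.42% and 13% met it. Each ± in this paragraph is an SE.

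Of 13 genes of purine synthesis, 1 met the unadjusted threshold for IIAEK in the knockout and 3 in wild type. Of all genes tested 4.42% and 13% met it, the shares to set beside the counts in this paragraph. Adssl1, a muscle form of adenylosuccinate synthase, had -0.67 ± 0.25 (SE) in the knockout. In wild type Adss, its widely expressed form, had -0.55 ± 0.19, and the IMP dehydrogenases Impdh1 and Impdh2, which lead to guanine nucleotides, had 0.58 ± 0.23 and 0.50 ± 0.20 (SE). Of 11 genes of pyrimidine salvage and breakdown the thymidine kinase Tk2 met it in the knockout (-0.48 ± 0.21) and Tk1 and the uridine kinase Uck2 in wild type (0.64 ± 0.23 and 0.41 ± 0.16). None of these passed after adjustment.

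The other transporters of nucleosides, nucleobases and urate had a median difference of -0.27 for IIAEK in the knockout, with 9 of 11 below 0, and of 0.29 in wild type, with 8 of 11 above 0. Slc29a1, the equilibrative carrier known from basolateral membranes, had 0.51 ± 0.23 (SE) in wild type, the 1 gene of this list at an unadjusted p under 0.05 there, and in the knockout 0 of 11 met it. For KO against WT over both treatments the exporter Abcc4 had 0.33 ± 0.13 (SE, adjusted p = 0.884) and Slc23a4, a nucleobase carrier of the rodent intestine, had -0.51 ± 0.23 (SE, adjusted p = 0.926). Among 18 receptors, P2ry2, a receptor for ATP and UTP, had 0.64 ± 0.27 (SE) for IIAEK in the knockout and -0.70 ± 0.27 (SE) in wild type. P2rx2, an ATP-gated channel, had 0.77 ± 0.22 (SE) in wild type and P2rx6 had -0.96 ± 0.39 (SE) in the knockout. The P2rx6 levels were dim, at -5.47, -5.84 and -5.71 in KO IIAEK and -5.31, -5.18 and -3.64 in KO vehicle. KO vehicle replicate 3 thus stood apart from the other arrays. On the KO IIAEK arrays 15 to 17 of the 18 receptors were well above background, so the P2rx6 readings may lie near the detection limit. Of the 18 receptors 3 met the unadjusted threshold in the knockout and 4 in wild type, of which 1 and 3 were above 0. Beside these counts and those of the transporters stand 4.42% and 13% of all genes tested.

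**Figure D4:**
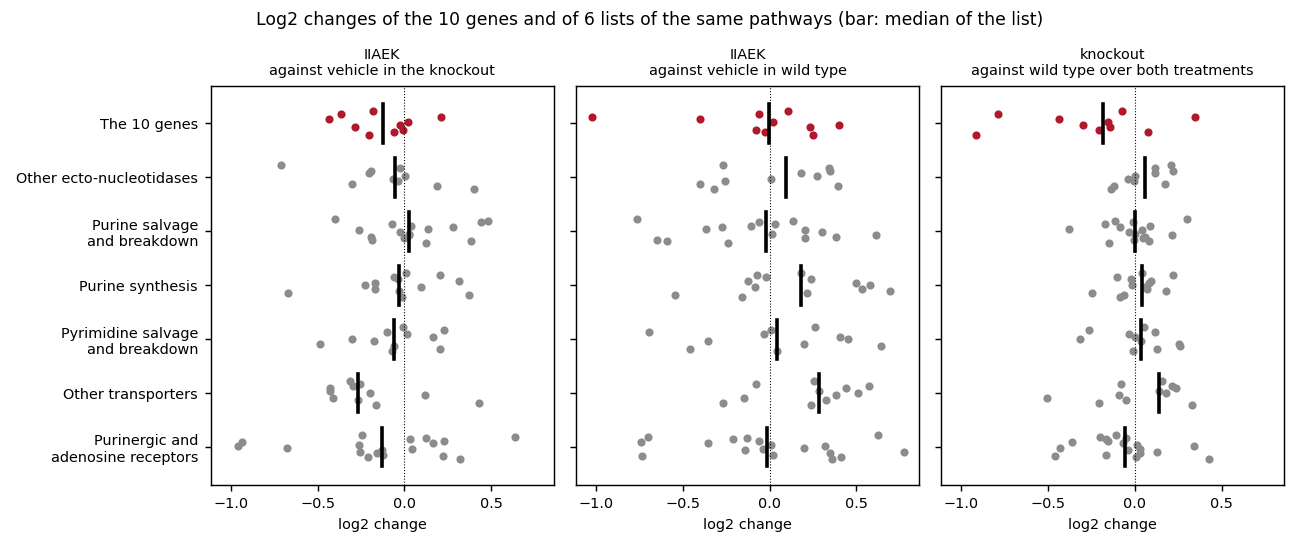
Log2 change (x axis) of each tested gene (points) in the 10 genes and 6 lists of the same pathways (y axis), with the median of each list as a black bar, in 3 comparisons. The points of every list lie on both sides of 0, and the median of the other transporters is -0.27 for IIAEK in the knockout and 0.29 for IIAEK in wild type.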

How the data were processed

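Total RNA of mouse jejunum, labelled with Cy3 per the labels, was read on 12 Agilent 8x60K arrays. Per the file headers, Feature Extraction 10.7.3.1 made the deposited processed signal, an intensity corrected for background and not scaled between arrays; the spot and background medians in the deposited files are intensities too. The deposited value table holds log2 values whose scaling and centring the sources do not state; they correlated with the centred log2 processed signal at r of 0.9997 or more on every array. RefSeq accessions named 32994 of 56605 probes, through a table on GRCm38.p6.

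The log2 processed signal minus each array's 75th percentile was used, and the brightest probe stood for a gene. A gene was tested when well above background on all 3 arrays of a group, which left 27565 genes. The 4 group means were fitted with limma 3.58.1 in R 4.3.3, two-sided, with Benjamini-Hochberg adjustment over all genes tested in a comparison and a threshold of 0.05. The fitting was tested on simulated data with independent normal noise. The simulation held no slide effect and no outlying array, so it does not cover these. The number of arrays limits the precision. The alternatives were another background correction, quantile normalization, the deposited table, other filters, the mean of probes, slide and replicate blocks, single slides, fewer arrays in the fit and leaving out arrays.

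The 10 genes, the pathway lists and the marker lists were chosen with earlier results of these data known. All 10 genes were named in every comparison; of each pathway list, up to 4 genes with the smallest p in the IIAEK comparisons and in genotype over both treatments could be named, and the 4 phosphatases. Changes of at least 0.25 log2 units, a limit chosen after seeing the values, were followed through every alternative. Akp3 and Glrp1 folds set the lowest signal well above background on a KO array in place of a dimmer one, and left WT readings as they were. Promoter motifs were searched in 32851 RefSeq windows.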

Additional observations from a re-analysis of the deposited data

How the results depend on the processing

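None of the 10 genes passed the adjusted threshold under the main or any of the other 23 settings; the smallest adjusted p was 0.0874, for Slc28a1 with IIAEK in wild type within slide 2. Within slide 1 the log2 change of Slc28a1 turned in all 7 comparisons: -0.090 for IIAEK in the knockout, 1.33 for IIAEK in wild type, 0.70 for KO against WT on vehicle, -0.71 on IIAEK, -1.42 for the interaction, 0.62 for IIAEK over both genotypes and -0.0054 for KO against WT over both treatments. There, Slc28a2 turned to 0.042 for IIAEK in the knockout and 0.59 for the interaction, and Ada to 0.44 for the interaction; within slide 2, Slc28a2 turned to 0.0058 for KO against WT on vehicle. Some of these values have 1 array a group, and the cause was not tested. Within slide 2 the median of the 10 genes was -0.47 for KO against WT on IIAEK and -0.36 for the interaction. Leaving out 1 array turned or moved the following log2 differences, none of them called. For IIAEK in the knockout the range was -0.94 to 0.023 for Nt5e (turned without KO IIAEK replicate 1) and -1.09 to 0.0069 for Slc28a2 (KO vehicle replicate 3). For KO against WT on vehicle it was -0.79 to 0.089 for Nt5e, -1.01 to 0.091 for Slc28a2 and -0.24 to -0.021 for the median of the 10 genes, each at its highest without KO vehicle replicate 2, and -0.72 to 0.042 for Slc28a1 (WT vehicle replicate 3). For KO against WT on IIAEK it was -0.86 to 0.0050 for Nt5e (KO IIAEK replicate 1). For the interaction it was -0.93 to 0.12 for Ada (KO vehicle replicate 1), -1.03 to 0.068 for Slc28a2 (turned without KO vehicle replicate 1 or 3 or KO IIAEK replicate 1) and -0.37 to 0.076 for the median of the 10 genes (KO vehicle replicate 1). For single genes, only differences of at least 0.25 in size are listed here, beside that of Slc28a1 in the knockout. Of all 70 values, 10 genes in 7 comparisons, 21 turned within slide 1, 9 within slide 2 and 33 on leaving out some 1 array. No paired design was found: deviations of arrays with the same number correlated at -0.25 to 0.35 and no group pair had all 3 over 0.1. With the replicate number as a replicate block, 0 of the 10 genes were called, and 1 gene of all was called for KO against WT over both treatments. Counts over all genes were 0 for IIAEK in wild type, against 1 with the slide block and 10 within slide 2. For IIAEK in the knockout they were 0, against 7 within slide 1 and 14 with only the arrays of the groups compared. That last setting called 1 for KO against WT on vehicle and 4 on IIAEK, where the main fit called 0 and the slide block called 1 on IIAEK. For KO against WT over both treatments the main setting called 1 gene (Glrp1, lower in KO). Normexp called 2, both higher in KO, so that Glrp1 was lost; the stricter filter, which does not test Glrp1, called 0. Quantile normalization called 4 and the mean of probes 2, Glrp1 among them; leaving out 1 array gave 0 to 10.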
